A study of Mus musculus with 20 samples.

Results

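The genes of the cell cycle and DNA replication were described in white adipose tissue of mice. The set holds 40 genes, chosen by name, of 56805 genes in each count table, and every one of the 40 had enough reads to be tested beside 21306 genes in all. By role it splits into 13 genes of the S phase (the MCM helicase, the clamp Pcna, nucleotide supply and the E cyclins), 24 genes of mitosis (cyclins, kinases, spindle and kinetochore) and 3 regulators (Foxm1, Mybl2 and Stmn1). Polyadenylated RNA was sequenced from the white fat of 20 mice, 5 per group. The high-fat tea group received a high-fat diet and drank a water extract of Tibetan tea. The high-fat water group received the high-fat diet and water, the chow tea group chow and the tea extract, and the chow water group chow and water. All 4 groups were kept for 10 weeks with free access to food and drink. The sources used here do not give the depot, strain, sex or age of the mice. Each library comes from whole tissue, in which fewer cells of a type and less RNA per cell cannot be told apart.

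A dividing cell first licenses its replication origins by loading the ring-shaped MCM helicase, then fires them when E cyclins activate their kinase, and copies its DNA with the help of the sliding clamp and a supply of deoxynucleotides. It later assembles a spindle under the control of A and B cyclins, Cdk1 and the mitotic kinases. Genes of the first step are turned on largely by E2F factors, genes of the second by the MuvB complex together with B-Myb and FoxM1. Mature fat cells hardly divide, and dividing cells in fat tissue are mostly precursors, vessel cells and immune cells, among them macrophages of obese fat.

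Depth was 53047057 to 93314761 reads in genes per library. Levels are given as CPM, the count of a gene scaled to the total of its library and corrected by a scaling factor between libraries (TMM). Chow water replicate 1 gave 40.2% of its reads to a list of 18 genes of the pancreas acinus. A list of 10 intestinal genes summed in it to 5338 CPM, against 17.7 to 103 CPM in the other 4 chow water libraries. Olfm4, a gene of intestinal crypt stem cells, stood there at 245 CPM, and Jchain, a plasma cell gene, at 506 CPM. In 9 of the 20 libraries a list of another organ summed to more than 1000 CPM, 3 of them in the high-fat tea group, 3 in the high-fat water group, 1 in the chow tea group and 2 in the chow water group. The 10 genes of the adipocyte list, which mark the labelled tissue, summed to 9290.0 CPM or more in every library. Chow water replicate 1 stood at 15532.5 CPM, against 36525.5 to 49357 CPM in the other 4 chow water libraries. The lowest sum of all was in the high-fat tea group, where the median was 34626 CPM. Crypt cells of the intestine and activated B cells divide. Their part in the levels of the cell cycle genes was not tested, and results are given with and without chow water replicate 1.

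That library held the highest level of 31 of the 40 genes among all 20 libraries, and exceeded the other 4 chow water libraries in 39 of 40. Its level was 9.41 times the median of those 4 for the median mitosis gene, and 1.73 times for the median S phase gene. Without it, high-fat water replicate 1 was the highest library for 35 of the 40 genes.

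**Figure D1:**
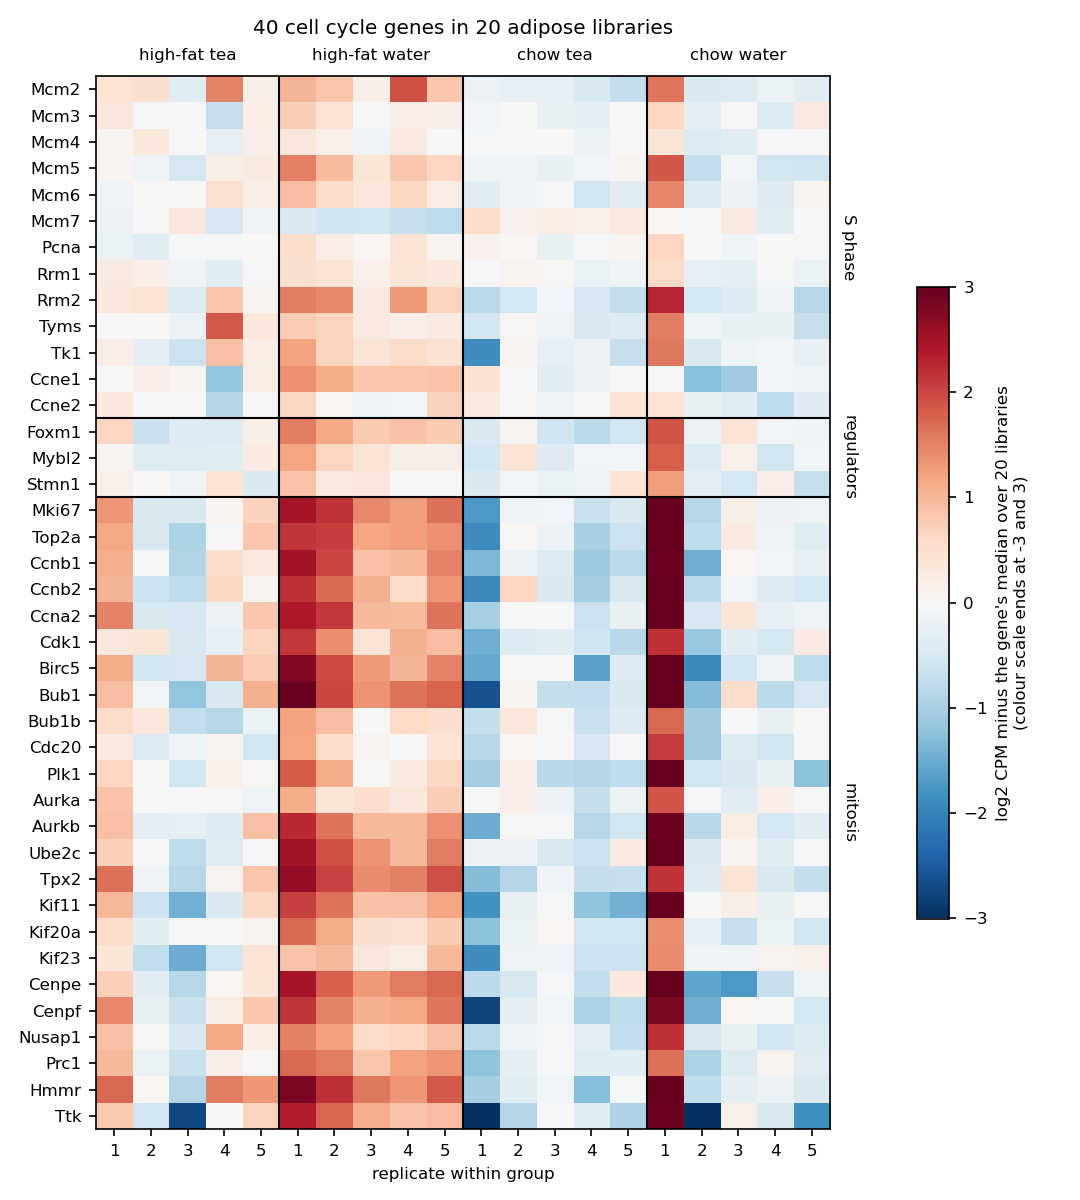
Levels of the 40 genes in the 20 libraries, as log2 CPM minus each gene's median over all libraries (colour, scale ends at -3 and 3). Columns are replicates 1 to 5 of the high-fat tea, high-fat water, chow tea and chow water groups; rows are grouped into S phase, regulators and mitosis. Chow water replicate 1 is red in nearly every row, and the 5 high-fat water libraries are red in most mitosis rows.

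The class medians show the same pattern per library. For the 24 mitosis genes the median log2 CPM was 1.66, 0.45, 0.01, 0.81 and 1.01 in high-fat tea replicates 1 to 5, 2.63, 2.16, 1.49, 1.46 and 1.94 in high-fat water, -0.43, 0.65, 0.58, -0.00445 and 0.34 in chow tea, and 3.31, 0.14, 0.54, 0.42 and 0.38 in chow water. All 5 high-fat water libraries lay above all 5 chow tea libraries and above chow water replicates 2 to 5, and high-fat tea replicate 1 lay inside the high-fat water range. For the 13 S phase genes the median log2 CPM was 2.99, 3.05, 2.23, 3.69 and 2.75 in high-fat tea, 4.03, 3.46, 2.86, 3.97 and 3.38 in high-fat water, 2.40, 2.40, 2.32, 2.43 and 2.60 in chow tea, and 4.32, 2.14, 2.43, 2.37 and 2.23 in chow water. Here too the high-fat water libraries lay above chow tea and chow water replicates 2 to 5, and the range of high-fat tea reached into both. The S phase median of a library minus its mitosis median was 1.39, 1.30, 1.37, 2.51 and 1.445 on the log2 scale in high-fat water replicates 1 to 5. It was 1.85 to 2.00 in chow water replicates 2 to 5 and 1.005 in chow water replicate 1. High-fat tea had 1.33 to 2.89 and chow tea 1.74 to 2.83. CPM is not corrected for gene length, so this difference can be set only against that of other libraries.

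**Figure D2:**
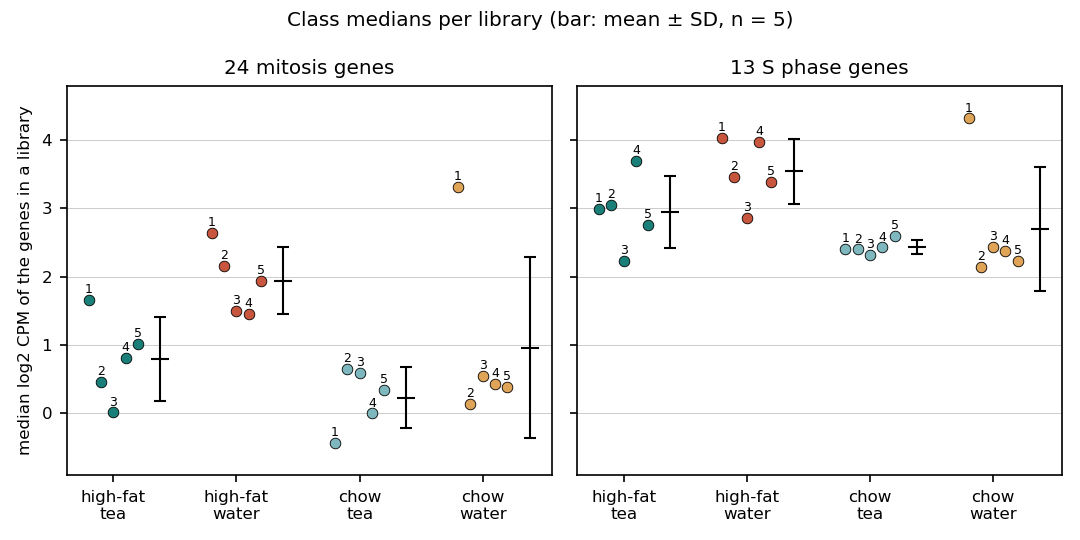
Median log2 CPM of the 24 mitosis genes (left) and of the 13 S phase genes (right) in each library, with the replicate number above each point and the mean ± SD of 5 libraries as a bar. In both panels the high-fat water points lie above chow tea and above chow water replicates 2 to 5, and chow water replicate 1 is the highest point.

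Promoters of both classes are shown because most members of each had log2 changes of like sign in both comparisons of high-fat water. With all libraries, Mcm7 went against most others in both comparisons. Plk1 did so in high-fat water against chow water, and Tyms in high-fat tea against high-fat water. Of the 40 genes, 32 matched the RefSeq promoter table (GRCm38.p6), which gives 250 bases before and 50 bases after each gene's start. Mcm4, Ccna2, Tpx2, Aurkb, Kif20a, Ccne2, Foxm1 and Stmn1 were not matched. The element known as CHR, which the MuvB complex binds, was searched as TTTGAA and as TTTAAA, the CCAAT box, bound by NF-Y, as CCAAT, and E2F words as TTCCCGC or as TTCGCGC or as TTGGCGC or as TTGCCGC, all on both strands. TTTAAA reads the same on both strands, and E2F words on opposite strands can overlap by several bases. The 170 bases before the start lie at chr2:164769759-164769928 for Ube2c (plus strand), chr7:135716380-135716549 for Mki67 (minus strand), chr10:69352913-69353082 for Cdk1 (minus strand), chr1:128359706-128359875 for Mcm6 (minus strand), chr5:138171884-138172053 for Mcm7 (minus strand) and chr7:38107491-38107660 for Ccne1 (minus strand), printed 5′ to 3′ on the gene's strand with every searched word in capitals.
Ube2c: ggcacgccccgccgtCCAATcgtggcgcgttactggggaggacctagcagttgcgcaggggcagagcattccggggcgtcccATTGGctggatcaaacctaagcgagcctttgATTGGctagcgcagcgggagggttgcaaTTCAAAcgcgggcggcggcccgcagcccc
Mki67: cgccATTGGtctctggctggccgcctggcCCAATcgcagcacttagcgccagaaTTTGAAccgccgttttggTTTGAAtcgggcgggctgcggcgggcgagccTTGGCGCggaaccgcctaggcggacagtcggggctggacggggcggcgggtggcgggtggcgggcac
Cdk1: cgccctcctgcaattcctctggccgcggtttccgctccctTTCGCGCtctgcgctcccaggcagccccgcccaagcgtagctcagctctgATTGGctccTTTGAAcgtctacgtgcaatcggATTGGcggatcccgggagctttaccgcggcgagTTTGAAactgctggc
Mcm6: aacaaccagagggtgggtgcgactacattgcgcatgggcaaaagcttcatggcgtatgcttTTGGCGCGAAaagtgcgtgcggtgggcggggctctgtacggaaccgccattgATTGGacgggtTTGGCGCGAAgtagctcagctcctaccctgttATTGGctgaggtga
Mcm7: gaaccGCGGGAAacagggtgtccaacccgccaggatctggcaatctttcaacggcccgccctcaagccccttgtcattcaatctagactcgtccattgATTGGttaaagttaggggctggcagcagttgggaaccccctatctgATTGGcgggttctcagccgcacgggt
Ccne1: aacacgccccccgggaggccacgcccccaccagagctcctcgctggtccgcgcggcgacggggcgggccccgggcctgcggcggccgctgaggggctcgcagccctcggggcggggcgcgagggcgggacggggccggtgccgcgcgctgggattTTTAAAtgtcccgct
Ube2c, Mki67 and Cdk1, genes of mitosis, carry TTTGAA or its reverse complement TTCAAA close to CCAAT boxes on either strand (ATTGG is the reverse). Mki67 and Cdk1 also carry 1 E2F word each. Mcm6 carries an overlapping pair of E2F words at each of 2 places, and Mcm7 an E2F word and 2 reversed CCAAT boxes. Ccne1 carries TTTAAA in this window and none of the other words. TTTGAA stood in 15 of 20 matched mitosis promoters and in 1 of 11 S phase promoters, against 18.1% of 27025 promoters. TTTAAA stood in 6 of 20 mitosis and 4 of 11 S phase promoters, against 13.2% of all. CCAAT stood in 18 of 20 mitosis and 8 of 11 S phase promoters, against 37.9% of all, and an E2F word in 4 of 20 and 6 of 11, against 9.69% of all. These are matches of letters and say nothing of binding in this tissue.

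The first comparison asks what the high-fat diet does in mice that drink water. With all 20 libraries, 1 of the 40 genes rose and 1 fell in high-fat water, where 8.06% of all genes tested rose and 7.11% fell. Calls rest on an adjusted p below 0.05 from the edgeR quasi-likelihood test with Benjamini-Hochberg adjustment over all genes, with n = 5 libraries per group. Both counts lay below the shares over all genes. Both called genes act at the start of the S phase, and both were also called without chow water replicate 1.

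Ccne1 (chr7:37797409-37806959, minus strand, GRCm39) encodes cyclin E1, which drives the entry into the S phase with Cdk2. It had 5.17, 4.27, 3.54, 3.53 and 3.63 CPM in high-fat water, against 1.96, 0.837, 0.935, 1.89 and 1.82 CPM in chow water. Every high-fat water library lay above every chow water library, chow water replicate 1 included. The log2 fold change was 1.44 (SE 0.29, adjusted p = 0.00412) with all libraries and 1.51 (SE 0.31, adjusted p = 0.00418) without chow water replicate 1. Its paralog Ccne2 averaged 3.88 ± 1.08 CPM in high-fat water and 2.78 ± 0.876 CPM in chow water (SD, n = 5 each), and its log2 change of 0.48 (SE 0.25, adjusted p = 0.194) did not pass. Of the exonic bases of Ccne2, 17.4% are shared with Ints8.

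Mcm7 (chr5:138162845-138170684, minus strand), a subunit of the MCM helicase, fell. It had 24.2, 21.9, 22.3, 20.5 and 19.3 CPM in high-fat water, against 34.0, 33.1, 39.4, 26.5 and 32.7 CPM in chow water, and the groups did not overlap. The log2 change was -0.62 (SE 0.14, adjusted p = 0.00688) with all libraries and -0.65 (SE 0.15, adjusted p = 0.00789) without chow water replicate 1. It was the only one of the 40 genes with a negative log2 change without that library. Of its exonic bases, 12.6% overlap Cops6, Ap4m1 and the microRNA genes Mir25 and Mir93, at least 1 of them on the other strand, and counting used no strand option.

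The other 5 MCM subunits pointed the other way. Mcm5 had 16.3, 11.0, 7.27, 9.99 and 8.93 CPM in high-fat water, against 3.39, 5.38, 3.87 and 3.74 CPM in chow water replicates 2 to 5 and 20.6 CPM in chow water replicate 1. All high-fat water libraries exceeded those 4, and chow water replicate 1 exceeded all of them. On the log2 scale the change was 0.54 (SE 0.40, adjusted p = 0.385) with all libraries, and 1.34 (SE 0.22, adjusted p = 0.00118) without replicate 1. Mcm2 had 12.1, 10.5, 6.73, 22.4 and 10.4 CPM in high-fat water, against 4.41, 4.56, 5.17 and 4.70 CPM in chow water replicates 2 to 5 and 18.2 CPM in chow water replicate 1. Its highest level was in high-fat water replicate 4, a library with transcripts of the adrenal cortex and the seminal vesicle. Its log2 change was 0.75 (SE 0.42, adjusted p = 0.236) with all libraries and 1.35 (SE 0.34, adjusted p = 0.013) without replicate 1. Mcm6 changed by 0.71 (SE 0.17, adjusted p = 0.00944) without that library, while Mcm3 and Mcm4 at 0.34 and 0.27 did not pass (adjusted p = 0.26 and 0.161 in the same edgeR fit).

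The level of the 6 subunits can be compared per kilobase of exon. In high-fat water the median CPM per kilobase was 4.94 for Mcm7, 4.78 for Mcm4, 4.63 for Mcm6, 4.18 for Mcm3, 2.50 for Mcm5 and 1.51 for Mcm2. In chow water replicates 2 to 5 it was 7.43 for Mcm7, 3.78 for Mcm4, 2.56 for Mcm6, 3.37 for Mcm3, 0.952 for Mcm5 and 0.665 for Mcm2. Mcm7 was the highest of the 6 in both groups, and Mcm5 and Mcm2 the lowest. Over the 6 subunits these medians reached from 1.51 to 4.94 in high-fat water, and from 0.665 to 7.43 in chow water. The length counted is the union of annotated exons, which need not be the length transcribed.

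Pcna, the sliding clamp that holds the polymerase on DNA, was not called. It had 38.02, 30.3, 27.8, 35.1 and 28.0 CPM in high-fat water, against 26.9, 24.4, 26.2 and 25.3 CPM in chow water replicates 2 to 5 and 41.7 CPM in chow water replicate 1. The high-fat water libraries all exceeded the 4, at a log2 change of 0.14 (SE 0.14, adjusted p = 0.519) with all libraries and 0.27 (SE 0.11, adjusted p = 0.102) without replicate 1. Of its exonic bases, 20.8% are shared with AV099323 on the other strand.

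Among the genes of nucleotide supply, both subunits of ribonucleotide reductase rose once chow water replicate 1 was left out. Rrm2, the subunit made in the S phase, had 7.64, 6.97, 3.12, 6.23 and 4.08 CPM in high-fat water, against 1.79, 1.96, 2.37 and 1.46 CPM in chow water replicates 2 to 5 and 12.6 CPM in chow water replicate 1. The groups without that library did not overlap. This gave a log2 change of 0.48 (SE 0.49, adjusted p = 0.537) with all libraries, and 1.52 (SE 0.29, adjusted p = 0.00282) without replicate 1, where Rrm1 changed by 0.50 (SE 0.12, adjusted p = 0.00844). Tyms, which makes thymidylate, and Tk1, which salvages thymidine, had log2 changes of 0.71 and 0.88 and did not pass (adjusted p = 0.177 and 0.0882 in edgeR).

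No mitosis gene was called with all 20 libraries, though 23 of 24 had a positive log2 change, with 3 at an unadjusted p below 0.05 in edgeR. DESeq2 called none of the 24 and limma voom called 11. Without chow water replicate 1, 20 of the 24 rose in edgeR, and 27 of the 40 genes rose and 1 fell, where 7.38% of all genes rose and 7.62% fell. In 34 of the 40 genes all 5 high-fat water libraries then exceeded all 4 chow water libraries, which was so in 11.6% of all genes. The median log2 change of the mitosis genes was 0.42 with all libraries and 1.80 without replicate 1. That of the S phase genes was 0.34 and 0.71, and that of all genes tested was -0.002 and 0.01. The difference between the classes was not tested.

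**Figure D3:**
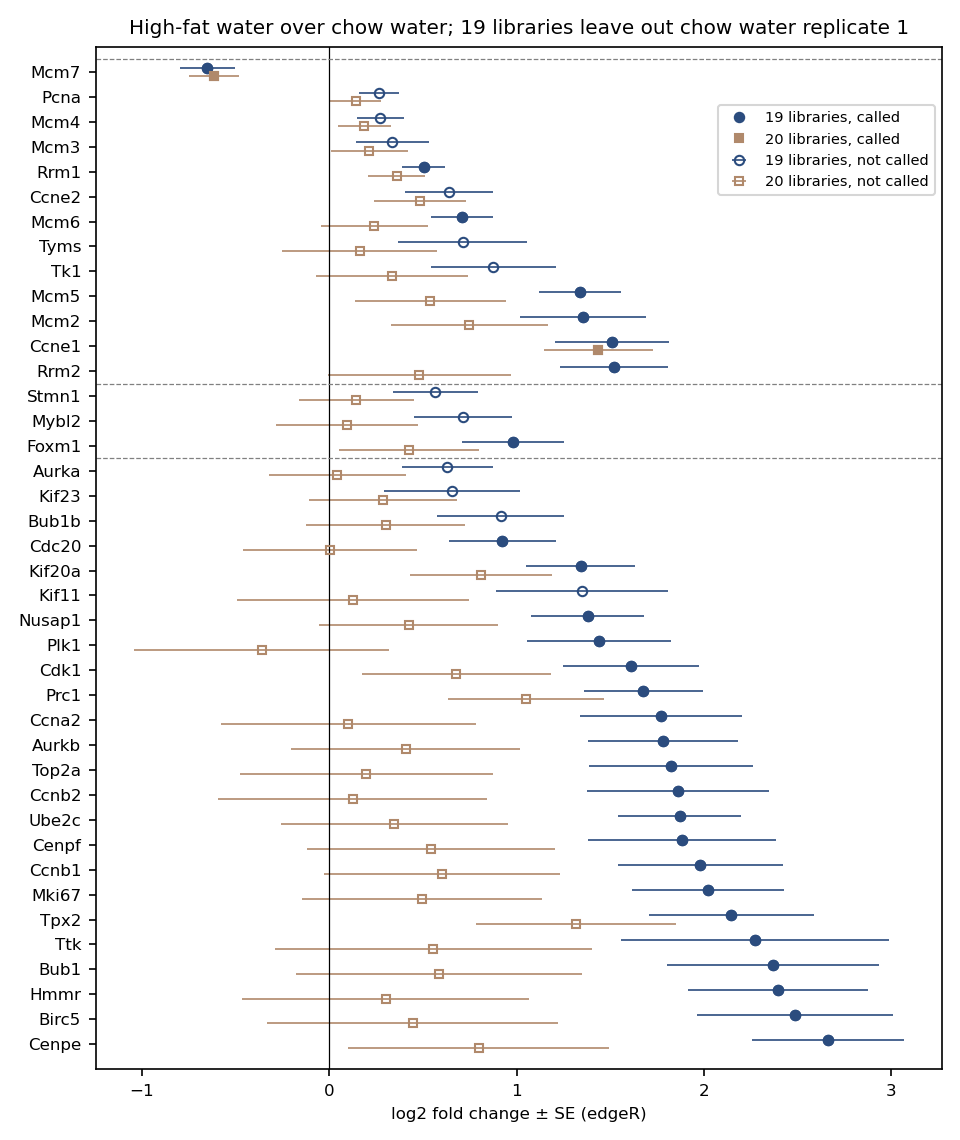
Log2 fold change ± SE of each gene for high-fat water over chow water, with all 20 libraries (squares) and without chow water replicate 1 (circles); filled symbols are called. Dashed lines part S phase genes (top), regulators and mitosis genes. Ccne1 and Mcm7 keep their place, and the mitosis genes shift to the right without that library.

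Mki67, the proliferation marker that coats mitotic chromosomes, had 36.5, 29.7, 17.9, 15.8 and 21.0 CPM in high-fat water, against 3.65, 7.52, 5.86 and 6.01 CPM in chow water replicates 2 to 5 and 63.0 CPM in chow water replicate 1. All 5 high-fat libraries exceeded the 4, and chow water replicate 1 exceeded all 5. The log2 change was 0.49 (SE 0.64, adjusted p = 0.64) with all libraries and 2.02 (SE 0.41, adjusted p = 0.00408) without replicate 1. Top2a, the topoisomerase that untangles sister chromatids, had 19.03, 18.1, 9.84, 10.4 and 11.3 CPM in high-fat water, against 2.57, 5.15, 3.88 and 3.39 CPM in chow water replicates 2 to 5 and 44.95 CPM in chow water replicate 1. Its log2 change was 0.20 (SE 0.67, adjusted p = 0.871) with all libraries and 1.82 (SE 0.44, adjusted p = 0.0106) without replicate 1.

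The cyclins and Cdk1, the kinase that starts mitosis, rose together without chow water replicate 1. The log2 changes were 1.98 (SE 0.44, adjusted p = 0.00702) for Ccnb1, 1.86 (SE 0.48, adjusted p = 0.0168) for Ccnb2, 1.77 (SE 0.43, adjusted p = 0.0118) for Ccna2 and 1.61 (SE 0.36, adjusted p = 0.00765) for Cdk1. None of the 4 was called with all libraries, where they ran from 0.10 for Ccna2 to 0.68 for Cdk1. Ccna2 shares 12.5% of its exonic bases with Exosc9.

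At the kinetochore, Cenpe, the motor that carries chromosomes to the spindle equator, had the largest log2 change of the 40 genes without chow water replicate 1. It had 7.25, 4.51, 3.15, 3.81 and 4.31 CPM in high-fat water, against 0.433, 0.397, 0.801 and 1.19 CPM in chow water replicates 2 to 5 and 10.5 CPM in chow water replicate 1. The 5 high-fat libraries all exceeded the 4, and the lowest of the 5 stood at more than 2 times the highest of the 4. On the log2 scale the change was 0.80 (SE 0.70, adjusted p = 0.464) with all libraries, and 2.66 (SE 0.41, adjusted p = 0.000719) without replicate 1. Birc5, or survivin, part of the chromosomal passenger complex, changed by 2.49 (SE 0.52, adjusted p = 0.00515) and Cenpf, a kinetochore protein, by 1.89 (SE 0.50, adjusted p = 0.0186) without that library.

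The kinases of mitosis were split. Without chow water replicate 1, Bub1 and Ttk, kinases of the spindle checkpoint, changed by 2.37 (SE 0.57, adjusted p = 0.0105) and 2.27 (SE 0.72, adjusted p = 0.0407), and Aurkb, the passenger complex kinase, by 1.78 (SE 0.40, adjusted p = 0.00734). Plk1, which acts from the centrosome to the midbody, changed by 1.44 (SE 0.38, adjusted p = 0.0186), while its log2 change with all libraries was -0.36 (SE 0.68, adjusted p = 0.758). Aurka, the centrosomal Aurora kinase, and Bub1b, the checkpoint protein BubR1, had 0.63 and 0.91 and did not pass (adjusted p = 0.0911 and 0.0788 in edgeR).

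Ube2c, the ubiquitin-conjugating enzyme of the anaphase-promoting complex, had 9.64, 6.42, 4.30, 3.36 and 4.98 CPM in high-fat water, against 1.25, 1.81, 1.36 and 1.66 CPM in chow water replicates 2 to 5 and 16.6 CPM in chow water replicate 1. The 5 libraries exceeded the 4. The log2 change was 0.35 (SE 0.60, adjusted p = 0.737) with all libraries and 1.87 (SE 0.33, adjusted p = 0.00177) without replicate 1. It shares 22.8% of its exonic bases with Tnnc2, a muscle gene on the other strand, which reached at most 1.89 CPM in any library. Cdc20, an activator of the same complex, changed by 0.92 (SE 0.29, adjusted p = 0.0382) without replicate 1.

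Among spindle genes, Prc1, which bundles microtubules between the separating chromosomes, had 6.68, 5.88, 3.596, 4.68 and 5.01 CPM in high-fat water, against 1.04, 1.51, 2.15 and 1.56 CPM in chow water replicates 2 to 5 and 6.29 CPM in chow water replicate 1. Tpx2, which activates Aurka on the spindle, had 11.2, 7.38, 4.87, 5.19 and 6.92 CPM in high-fat water, against 1.40, 2.38, 1.32 and 1.10 CPM in chow water replicates 2 to 5 and 8.14 CPM in chow water replicate 1. For these 2 genes chow water replicate 1 lay within the high-fat water range. The log2 changes were 1.05 (SE 0.42, adjusted p = 0.0957) and 1.32 (SE 0.53, adjusted p = 0.102) with all libraries, and 1.68 (SE 0.32, adjusted p = 0.00294) and 2.15 (SE 0.44, adjusted p = 0.00443) without replicate 1. Hmmr, Nusap1 and Kif20a also rose without it, by 2.39, 1.38 and 1.34 on the log2 scale, while the motors Kif11 and Kif23 had 1.35 and 0.65 and did not pass (adjusted p = 0.0571 and 0.244 in edgeR). Kif20a shares 29.3% of its exonic bases with Cdc23.

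Of the regulators, Foxm1, the transcription factor of late cell cycle genes, had 5.91, 4.54, 3.54, 3.79 and 3.52 CPM in high-fat water, against 1.82, 2.73, 1.95 and 1.86 CPM in chow water replicates 2 to 5 and 7.56 CPM in chow water replicate 1. This gave a log2 change of 0.42 (SE 0.37, adjusted p = 0.464) with all libraries and 0.98 (SE 0.27, adjusted p = 0.0233) without replicate 1. Mybl2, which encodes B-Myb, and Stmn1, the microtubule destabiliser stathmin, had 0.72 and 0.57 and did not pass (adjusted p = 0.075 and 0.105 in edgeR).

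With chow water replicate 1 left out of this comparison, DESeq2 called 34 of the 40 genes and limma voom 29, beside the 28 of edgeR. Leaving out a further library kept the number of called genes between 22 and 32 of 40, and 22 genes were called in every one of the 19 fits. These are 15 mitosis genes and all 7 of the called S phase genes, and all 40 genes kept their direction. Leaving out instead every library with more than 1000 CPM of another organ's list, which leaves 2 high-fat water and 3 chow water libraries, called 30 of the 40 genes, all of them higher, where 5.14% of all genes rose. Of those 30, 26 are among the 28 called without chow water replicate 1, and Mcm7 at -0.54 (SE 0.16, adjusted p = 0.0636) was then not called.

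The second comparison asks what the tea extract does in mice on the high-fat diet. With all 20 libraries, Ccne1 fell and Mcm7 rose in high-fat tea, and the other 38 genes were not called, where 2.06% of all genes rose and 2.3% fell. The high-fat water libraries serve in this comparison and in the first, so opposite signs in the 2 are not independent. All 24 mitosis genes and 11 of 13 S phase genes had a negative log2 change, with medians of -1.24 and -0.38, against 0.02 over all genes tested.

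Ccne1 had 1.93, 2.30, 2.12, 0.895 and 2.32 CPM in high-fat tea, against 5.17, 4.27, 3.54, 3.53 and 3.63 CPM in high-fat water. Every high-fat tea library lay below every high-fat water library, and high-fat tea replicate 4, a library with kidney and intestinal transcripts, was the lowest. On the log2 scale the change was -1.07 (SE 0.29, adjusted p = 0.0414). Mcm7 had 29.2, 33.7, 41.9, 23.2 and 30.0 CPM in high-fat tea, against 24.2, 21.9, 22.3, 20.5 and 19.3 CPM in high-fat water, and high-fat tea replicate 4 lay within the high-fat water range. Its log2 change was 0.55 (SE 0.14, adjusted p = 0.0309). Neither gene was called when any of the high-fat water libraries or high-fat tea replicates 2 or 3 was left out, or when the fit held the 10 high-fat libraries alone. Over the 20 fits that each left out 1 library, Ccne1 was called in 7 and Mcm7 in 13.

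Chow water replicate 1 is no part of this contrast, but enters the shared estimate of the spread. Without it 12 of the 40 genes were called, 11 lower and Mcm7 higher, where 3.5% of all genes fell and 3.74% rose. Of these 12, 11 are among the 28 genes called in the first comparison without that library. The 12 are 7 mitosis genes, 4 S phase genes and Foxm1. A fit of the 10 high-fat libraries alone called 0 of the 40 in edgeR, and 21 of all genes. With all 20 libraries DESeq2 called 5 of the 40 and limma voom 7, Ccne1, Mcm7, Ube2c, Prc1 and Foxm1 in both. At an unadjusted p below 0.05 stood 16 of the 40 in edgeR with all libraries, and 31 without chow water replicate 1.

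Ube2c had the lowest p-value of the 40 without chow water replicate 1. It had 2.79, 1.63, 1.01, 1.31 and 1.74 CPM in high-fat tea, against 9.64, 6.42, 4.30, 3.36 and 4.98 CPM in high-fat water, and no high-fat tea library reached the high-fat water range. The log2 change was -1.76 (SE 0.62, adjusted p = 0.101) with all libraries and -1.73 (SE 0.30, adjusted p = 0.00541) without chow water replicate 1. Cenpe had 2.14, 1.04, 0.725, 1.36 and 1.67 CPM in high-fat tea, against 7.25, 4.51, 3.15, 3.81 and 4.31 CPM in high-fat water, again without overlap, with a log2 change of -1.73 (SE 0.71, adjusted p = 0.15) and -1.71 (SE 0.36, adjusted p = 0.0124) without chow water replicate 1. Prc1 had 3.95, 1.74, 1.27, 2.31 and 2.07 CPM in high-fat tea, against 6.68, 5.88, 3.596, 4.68 and 5.01 CPM in high-fat water. High-fat tea replicate 1, a library with muscle transcripts, lay within the high-fat water range. The log2 changes of Prc1 were -1.19 (SE 0.42, adjusted p = 0.1) with all libraries and -1.16 (SE 0.29, adjusted p = 0.0262) without chow water replicate 1.

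Mki67 had 16.7, 4.87, 4.85, 7.07 and 10.7 CPM in high-fat tea, against 36.5, 29.7, 17.9, 15.8 and 21.0 CPM in high-fat water. Replicate 1 of high-fat tea exceeded only the lowest high-fat water library. The log2 changes were -1.45 (SE 0.65, adjusted p = 0.185) with all libraries and -1.43 (SE 0.37, adjusted p = 0.0292) without chow water replicate 1. Top2a had 9.72, 3.09, 2.24, 4.26 and 7.54 CPM in high-fat tea, against 19.03, 18.1, 9.84, 10.4 and 11.3 CPM in high-fat water, with no overlap, and was called in neither fit, at -1.35 (SE 0.68, adjusted p = 0.241) and -1.33 (SE 0.40, adjusted p = 0.0507). Bub1, Tpx2 and Ccnb1 were called without chow water replicate 1, at -1.75 (SE 0.51, adjusted p = 0.0456), -1.36 (SE 0.39, adjusted p = 0.0451) and -1.35 (SE 0.40, adjusted p = 0.0479).

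**Figure D4:**
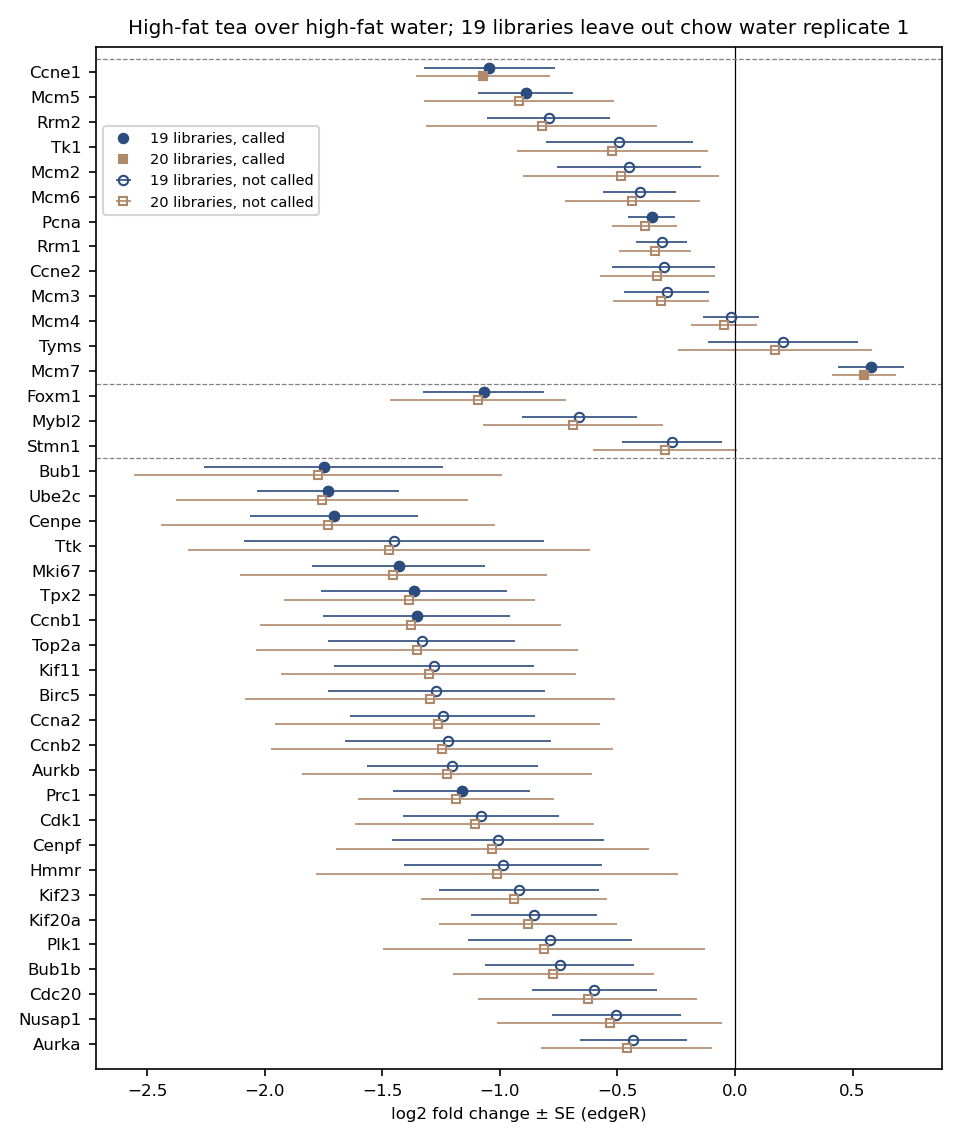
Log2 fold change ± SE of each gene for high-fat tea over high-fat water, with all 20 libraries (squares) and without chow water replicate 1 (circles); filled symbols are called. Dashed lines part S phase genes (top), regulators and mitosis genes. Points of both fits nearly coincide, the error bars shorten without that library, and Mcm7 and Tyms stand to the right of 0.

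Of the S phase genes, Mcm5 had 6.02, 5.15, 4.01, 6.42 and 6.70 CPM in high-fat tea, against 16.3, 11.0, 7.27, 9.99 and 8.93 CPM in high-fat water, and the groups did not overlap. The log2 changes were -0.92 (SE 0.40, adjusted p = 0.176) with all libraries and -0.89 (SE 0.20, adjusted p = 0.0168) without chow water replicate 1. Pcna had 23.1, 21.3, 26.1, 25.4 and 26.1 CPM in high-fat tea, against 38.02, 30.3, 27.8, 35.1 and 28.0 CPM in high-fat water, a small but separate difference, with log2 changes of -0.38 (SE 0.14, adjusted p = 0.105) and -0.36 (SE 0.10, adjusted p = 0.0397). Mcm2 had 7.96, 8.27, 4.69, 16.8 and 6.74 CPM in high-fat tea, against 12.1, 10.5, 6.73, 22.4 and 10.4 CPM in high-fat water. Its highest level in each group was in replicate 4. That library holds kidney and intestinal transcripts in high-fat tea, and adrenal and seminal vesicle transcripts in high-fat water. The log2 change was -0.48 (SE 0.42, adjusted p = 0.522).

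Tyms had 4.09, 4.20, 3.65, 14.8 and 5.17 CPM in high-fat tea, against 7.01, 6.58, 5.03, 4.78 and 4.96 CPM in high-fat water. High-fat tea replicate 4 stood far above the other 4 libraries of its group, at a log2 change of 0.17 (SE 0.41, adjusted p = 0.852) that turned to -0.46 without the libraries of kidney, adrenal and pancreas transcripts. Rrm2 averaged 3.17 ± 0.953 CPM in high-fat tea and 5.61 ± 1.93 CPM in high-fat water (SD, n = 5 each), with a log2 change of -0.82 (SE 0.49, adjusted p = 0.325). Foxm1 had 3.23, 1.29, 1.56, 1.57 and 2.33 CPM in high-fat tea, against 5.91, 4.54, 3.54, 3.79 and 3.52 CPM in high-fat water, without overlap, at log2 changes of -1.09 (SE 0.38, adjusted p = 0.0934) and -1.07 (SE 0.26, adjusted p = 0.0212) without chow water replicate 1. In 10 of the 40 genes all high-fat tea libraries lay below all high-fat water libraries, which was so in 3.18% of all genes.

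After chow water replicate 1, leaving out a further library called between 4 and 17 of the 40 genes. The count was 4 without high-fat tea replicate 2 or 3 and without high-fat water replicate 1 or 2. Ube2c, Cenpe and Mcm5 were called in all 19 of these fits, and 38 of the 40 genes kept their direction. Without the 9 libraries over 1000 CPM of another organ's list, which leaves 2 high-fat tea and 2 high-fat water libraries, edgeR called 0 of 40 genes and 0.0583% of all genes, though 36 of the 40 had an unadjusted p below 0.05 and 38 had a negative log2 change, 37 of them negative with all libraries too.

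**Figure D5:**
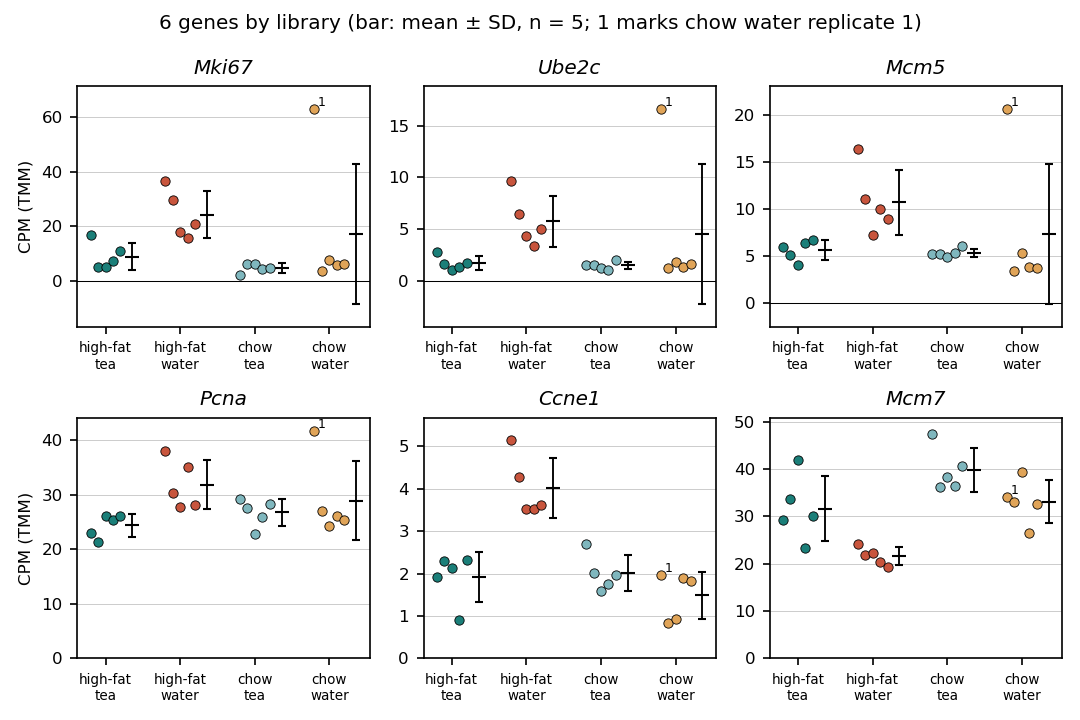
CPM of Mki67, Ube2c, Mcm5, Pcna, Ccne1 and Mcm7 in each of the 20 libraries, with the mean ± SD of 5 libraries as a bar beside the points of each group; bars that cross 0 belong to chow water. In the Ube2c, Mcm5 and Ccne1 panels all high-fat water points lie above every other point apart from chow water replicate 1 (marked 1); in the Mki67 panel high-fat tea replicate 1 and in the Pcna panel chow tea replicates 1 and 5 reach into their range, and in the Mcm7 panel high-fat tea replicate 4 does so from above.

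In chow-fed mice the tea extract called 0 of the 40 genes in edgeR, where 5 genes of all were called (0.0235%). DESeq2 called Kif11 and limma voom none of the 40. All 24 mitosis genes had a negative log2 change, with a median of -1.65, and 18 of the 40 genes had an unadjusted p below 0.05. Mki67 had 2.01, 6.12, 6.22, 4.20 and 4.75 CPM in chow tea, against 3.65, 7.52, 5.86 and 6.01 CPM in chow water replicates 2 to 5 and 63.0 CPM in chow water replicate 1. Its log2 change was -1.88 (SE 0.66, adjusted p = 0.262) with all libraries and -0.33 (SE 0.38, adjusted p = 0.914) without replicate 1. Kif11, the motor that pushes spindle poles apart, had 0.541, 1.63, 1.84, 0.824 and 0.699 CPM in chow tea, against 1.92, 2.15, 1.61 and 1.87 CPM in chow water replicates 2 to 5 and 15.25 CPM in chow water replicate 1. Chow tea replicates 2 and 3 lay among the 4, and the other chow tea libraries below them. The log2 difference was -2.03 (SE 0.64, adjusted p = 0.225) with all libraries and -0.80 (SE 0.44, adjusted p = 0.732) without replicate 1. Without that library the median of the mitosis genes was -0.12 and that of the S phase genes 0.04, against -0.03 over all genes, 0 of the 40 were called by edgeR, where 0.0276% of all genes were, 11 of the 40 had the other sign than with all libraries, and 1 had an unadjusted p below 0.05. That gene was Ccne2, with 3.87, 3.31, 3, 3.15 and 4.18 CPM in chow tea, against 2.77, 2.55, 1.89 and 2.44 CPM in chow water replicates 2 to 5, at a log2 difference of 0.52 (SE 0.23, adjusted p = 0.649).

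Between the diets in tea drinkers, 0 of the 40 genes were called by edgeR, DESeq2 or limma voom, where edgeR called 0.178% of all genes. All 24 mitosis genes had a positive log2 change in high-fat tea against chow tea, with a median of 0.78, against 0.12 for the S phase genes and 0.07 over all genes, and 4 of the 40 had an unadjusted p below 0.05. Tpx2 had 5.75, 1.69, 1.01, 1.95 and 3.23 CPM in high-fat tea, against 0.733, 0.988, 1.70, 1.11 and 1.13 CPM in chow tea, at a log2 change of 1.26 (SE 0.53, adjusted p = 0.253). High-fat tea replicates 2 and 3 lay within the chow tea range, and the other 3 above it. Mcm2 had 7.96, 8.27, 4.69, 16.8 and 6.74 CPM in high-fat tea, against 5.29, 5.00, 5.00, 4.36 and 3.64 CPM in chow tea, at a log2 difference of 0.93 (SE 0.42, adjusted p = 0.285), and high-fat tea replicate 3 lay within the chow tea range. Mcm7 had 29.2, 33.7, 41.9, 23.2 and 30.0 CPM in high-fat tea, against 47.5, 36.1, 38.4, 36.4 and 40.6 CPM in chow tea, with high-fat tea replicates 1, 2, 4 and 5 below all of chow tea, at a log2 difference of -0.33 (SE 0.14, adjusted p = 0.24). Ccne1 averaged 1.91 ± 0.591 CPM in high-fat tea and 2.01 ± 0.424 CPM in chow tea (SD, n = 5 each), a log2 difference of -0.07 (SE 0.28, adjusted p = 0.936). Chow water replicate 1 is no part of this contrast, and without it 15 of the 40 genes had an unadjusted p below 0.05 in edgeR and 0 were called, where 0.583% of all genes were.

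The interaction asks whether the change with tea differs between high-fat-fed and chow-fed mice. It called 0 of the 40 genes in edgeR, where 0.0657% of all genes were called, 1 in DESeq2 and 0 in limma voom. The gene that DESeq2 called was Ccne1, which was also the 1 gene with an unadjusted p below 0.05 in edgeR, at -1.51 (SE 0.40, adjusted p = 0.121) with all libraries and -1.57 (SE 0.41, adjusted p = 0.147) without chow water replicate 1. Its log2 change with tea was -1.07 in high-fat feeding and 0.43 in chow. For the mitosis genes the median interaction was 0.36 with all libraries and -0.90 without chow water replicate 1, against 0.05 and 0.06 over all genes. Without it 38 of the 40 genes had a negative interaction, 8 had an unadjusted p below 0.05 and 0 were called in edgeR, where 0.0413% of all genes were. Cenpe had the lowest p of the 40 there, at -2.28 (SE 0.52, adjusted p = 0.121). The changes with tea were thus not shown to differ between the diets.

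The genes around the members were read from 7 lists of the same pathways, none of which holds a member. With all 20 libraries in high-fat water against chow water, 6 of 21 genes of origin licensing and firing rose and Orc3 fell, and 3 of 29 genes of the replication fork rose. Of the mitotic lists, 1 of 30 genes of the centromere and kinetochore and 6 of 49 genes of the spindle, condensin and cytokinesis rose. Of all genes 8.06% rose. The fork and spindle counts lay near that share and the kinetochore count below it. Among the genes that rose, Timeless, a fork protection factor, changed by 1.03 (SE 0.17, adjusted p = 0.0012). Cdc45, a part of the active helicase, changed by 0.74 (SE 0.20, adjusted p = 0.0187) and Plk4, the kinase of centriole duplication, by 0.93 (SE 0.24, adjusted p = 0.0154). Without chow water replicate 1 the counts that rose were 9 of 21 with Orc3 lower, 11 of 29, 16 of 30 and 33 of 49, against 7.38% of all genes, with median log2 changes of 0.64, 0.51, 1.17 and 1.29. Ndc80, which ties kinetochores to microtubules, then changed by 2.28 (SE 0.31, adjusted p = 0.000343), and Smc2, a condensin subunit, by 1.26 (SE 0.19, adjusted p = 0.000757).

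Of the upstream factors, E2f1, an activating E2F, had 16.6 ± 4.82 CPM in high-fat water and 5.80 ± 2.54 CPM in chow water (SD, n = 5 each), at a log2 change of 1.51 (SE 0.28, adjusted p = 0.00251). E2f6, a repressing one, changed by 0.66 (SE 0.19, adjusted p = 0.026), and the other 8 of 10 E2F factors were not called, where 8.06% of all genes rose and 7.11% fell. E2f1 without chow water replicate 1 was called at 1.38 (SE 0.30, adjusted p = 0.0056) and E2f2 at 1.42 (SE 0.37, adjusted p = 0.0177), and E2f6 was not. Cdkn1a, the CDK inhibitor p21, had 49.8 ± 13.9 CPM in high-fat water and 284 ± 73.1 CPM in chow water, at a log2 change of -2.51 (SE 0.39, adjusted p = 0.000758). Of 16 CDK inhibitors, pocket proteins and DREAM complex genes 2 rose and 2 fell, shares near those over all genes. They include Cdkn1a, Rbbp4, a MuvB subunit, at -0.44 (SE 0.08, adjusted p = 0.00284) and Cdkn2d, an inhibitor of Cdk4 and Cdk6, at 0.77 (SE 0.15, adjusted p = 0.00332). Of 10 G1 cyclins and kinases none rose and 1 fell, a count near the share over all genes. It was Cdc25a, the phosphatase that activates Cdk2, at -1.53 (SE 0.36, adjusted p = 0.0105) with all libraries and -0.85 (SE 0.18, adjusted p = 0.0062) without chow water replicate 1.

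In high-fat tea against high-fat water, with all 20 libraries, 3 of 21 origin genes fell and Orc3 rose. Of the other lists, 1 of 29 fork genes, 1 of 30 kinetochore genes and 1 of 49 spindle genes fell. These 3 counts lay near the share over all genes, of which 2.3% fell. E2f1 had 7.87 ± 2.87 CPM in high-fat tea and 16.6 ± 4.82 CPM in high-fat water (SD, n = 5 each), a log2 change of -1.07 (SE 0.28, adjusted p = 0.0361). Timeless changed by -0.80 (SE 0.17, adjusted p = 0.0171), Cdc7, the kinase that fires origins, by -1.02 (SE 0.25, adjusted p = 0.0299), Gins2 by -0.98 (SE 0.26, adjusted p = 0.0412), Plk4 by -0.85 (SE 0.24, adjusted p = 0.0487) and Zwilch, a checkpoint protein of the kinetochore, by -1.19 (SE 0.33, adjusted p = 0.0471). Of the 16 CDK inhibitors, pocket proteins and DREAM complex genes 2 rose, where 2.06% of all genes rose. Rbl2, the pocket protein p130, rose by 0.42 (SE 0.09, adjusted p = 0.0195) and Rbbp4 by 0.33 (SE 0.08, adjusted p = 0.0333). Without chow water replicate 1 the counts that fell were 3 of 21 with Orc3 higher, 3 of 29, 4 of 30 and 9 of 49 with Pttg1 higher, against 3.5% of all genes. Ndc80 then changed by -1.36 (SE 0.27, adjusted p = 0.0106) and Tacc3, a spindle protein, by -0.82 (SE 0.17, adjusted p = 0.0125). None of the 10 G1 cyclins and kinases was called in either fit.

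Markers of other cells moved beside the members. Of 13 genes of the lipid-associated macrophages that gather around dead fat cells, 7 rose and none fell in high-fat water against chow water, both with all libraries and without chow water replicate 1, where 8.06% and 7.38% of all genes rose. In high-fat tea against high-fat water 5 fell with all libraries and 6 without chow water replicate 1, and none rose, where 2.3% and 3.5% of all genes fell. Itgax averaged 7.85 ± 8.71 CPM in high-fat tea, 51.0 ± 25.4 CPM in high-fat water, 1.89 ± 0.917 CPM in chow tea and 2.33 ± 0.384 CPM in chow water replicates 2 to 5. The summed level of the 13 genes ran from 5725 to 16870.2 CPM in high-fat tea and 10890.0 to 21239 in high-fat water. It ran from 13768 to 18649 in chow tea and 12319 to 17455 in chow water replicates 2 to 5. Trem2, Mmp12 and Gpnmb of this list averaged 47.0, 153 and 422 CPM in high-fat water. In chow water replicates 2 to 5 they averaged 3.07, 0.890 and 41.7 CPM. The sum thus rests mostly on other genes of the list, and its range does not show the change in these genes or in Itgax. None of the 13 was at 0 in all libraries. Of 15 general macrophage genes, 3 rose and 2 fell in high-fat water with all libraries, where 7.11% of all genes fell, and 1 rose and 3 fell without chow water replicate 1, where 7.62% fell. In high-fat tea against high-fat water 0 of the 15 were called in edgeR with all libraries, and 1 fell without chow water replicate 1. Of 13 T and NK cell genes Trac rose in high-fat water and fell in high-fat tea in both fits, and Cd3e fell in high-fat water with all libraries. Of 10 endothelial genes Erg rose in high-fat water with all libraries and none was called otherwise, and no B and plasma cell or progenitor gene was called in either comparison or fit. Of 10 mesothelial genes 3 fell in high-fat water with all libraries and 2 without chow water replicate 1, and 2 rose in high-fat tea against high-fat water in that fit, where 3.74% of all genes rose. The part of these cells in the levels of the 40 genes was not tested.

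Dividing germ cells of the testis express many of the same genes. Of the testis germ cell list, 4 genes had enough reads to be tested, and all 4 had a positive log2 change in high-fat water against chow water, with a median of 1.64 with all libraries and 1.46 without chow water replicate 1. Sycp3 and Zpbp rose in both fits, where 8.06% and 7.38% of all genes rose. Sycp3 fell in high-fat tea against high-fat water without chow water replicate 1, where 3.5% of all genes fell. The list of 12 testis germ cell genes summed to 2.27 to 7.17 CPM in high-fat tea, 7.38 to 15.0 in high-fat water, 3.26 to 5.67 in chow tea and 1.30 to 3.08 in chow water. Every high-fat water library lay above every library of the other 3 groups. Of the 12 genes, Tnp1 and Sycp1 were at 0 in all libraries, and Prm1 reached at most 0.054 CPM in any library. The part of such cells in the levels of the 40 genes was not tested. The 10 intestinal genes summed to 11.0 to 688 CPM in high-fat tea and 4.85 to 23.1 in high-fat water. They summed to 18.8 to 32.8 in chow tea and 17.7 to 103 in chow water replicates 2 to 5. Lgr5, a gene of this list, was highest in high-fat water replicate 4, at 16.6 CPM. The part of intestinal cells in the levels of the 40 genes was not tested. The 9 mitochondrial mRNAs, which shift with RNA quality and tissue make-up, summed to 28350.4 to 84078 CPM in high-fat tea, 30797 to 52076 in high-fat water and 41534 to 78995 in chow water replicates 2 to 5, with none of the 9 called.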

How the data were processed

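Polyadenylated RNA of white adipose tissue was read from 20 count tables, 1 per library. The deposited values are counts of reads per gene, made by the authors with fastp 0.23.2, HISAT2 2.2.1 and featureCounts 2.0.6, per the submitters' processing notes. Per the file headers, the annotation was GENCODE vM32 on GRCm39, while the notes name mm10, and reads were counted one by one rather than as pairs, with no strand option, although the kit marks strand. Between 68.1% and 72.2% of the counts from 1 to 20 in a library were even, so intervals that treat reads as independent would be too narrow. How reads with several hits were counted is not given in the sources used here. Levels are CPM, computed here from the deposited counts. Each count was scaled to its library's total over the tested genes, multiplied by the library's TMM factor. In chow water replicate 1 the TMM factor of 0.587 makes every level higher than it would be without the factor.

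Genes passed edgeR's filterByExpr by group (minimum count 10, minimum total 15), were scaled by TMM (0.587 in chow water replicate 1, 0.914 to 1.20 in the others), and were tested by edgeR 4.0.16 (R 4.3.3) with the quasi-likelihood test on group means over all 20 libraries, with Benjamini-Hochberg adjustment over all genes and a threshold of 0.05. The interaction is the tea difference in high-fat feeding minus that in chow. The standard error is the log2 change divided by the square root of F. The common coefficient of variation between libraries was 0.593, which sets the precision beside depth. Alternatives were RLE size factors, no low-count filter, a block for the replicate number, only the groups compared, DESeq2 1.42.0, limma 3.58.1 voom, leaving out each library in turn, and leaving out libraries with transcripts of other organs. The edgeR test was also run on counts simulated from the means and spreads of these data. No 2 libraries of a group were alike within sampling noise, the lowest chi-square per gene over 40 pairs being 61.6.

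The members and lists were chosen with earlier results of these data known. The rule for named genes gives all 40 members by class, values in every library for those called or lowest in p and for Mki67, Top2a, Pcna and Mcm2, and up to 3 called genes per pathway list. Some values of further genes, such as Jchain and Itgax, were picked after they were seen. Promoter sequences are from RefSeq (GRCm38.p6), gene positions from the file headers (GRCm39). Of the 40 genes, 14 share exonic bases with another gene, 11 of them with one on the other strand.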

Additional observations from a re-analysis of the deposited data

Results flagged for a closer look

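In 20 of 92 groups of 5 libraries, 1 library stood far from the other 4, by the size of its gap to the nearest as a share of the group's range. Chance gives about 1 in 20 such groups. The groups were those of the members with log2 changes followed under every setting, and of the S phase and mitosis class medians. The other members were not screened, so the cases below are not a full list. Among those members, Ccnb2 stood at 11.1 CPM in chow water replicate 1, against 0.649 to 1.05 CPM in the other 4 chow water libraries. Of the 20 cases, 15 were chow water replicate 1, the library with pancreatic and intestinal transcripts. There the outlying levels of mitosis and regulator genes were 63.0 CPM for Mki67, 44.95 CPM for Top2a, 10.7 CPM for Plk1, 16.6 CPM for Ube2c, 15.25 CPM for Kif11 and 7.56 CPM for Foxm1. Those of S phase genes were 18.2 CPM for Mcm2, 20.6 CPM for Mcm5, 39.7 CPM for Mcm6, 41.7 CPM for Pcna, 29.8 CPM for Rrm1, 12.6 CPM for Rrm2 and 12.0 CPM for Tyms. The class medians of that library stood apart too, at 4.32 log2 CPM for the S phase genes and 3.31 log2 CPM for the mitosis genes.

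High-fat tea replicate 4, the library with kidney transcripts, was high for Tyms, at 14.8 CPM. It was low for both E cyclins, at 0.895 CPM for Ccne1 and 1.74 CPM for Ccne2. The intestinal list summed to 688 CPM in this library, second only to chow water replicate 1, and its part in these levels was not tested. In the chow tea group Plk1 stood apart in replicate 2, at 1.29 CPM, and Prc1 in replicate 1, at 0.872 CPM.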

How the results depend on the processing

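With RLE size factors and with counts halved, all 60 member log2 changes kept their direction and call. In 533 such values outside the fits that leave out 1 library, 449 kept both and 23 changed sign. The fits without the 9 libraries, with halved counts, and those by other tools or without further libraries after chow water replicate 1 were chosen after seeing the data. "3 libraries" stands for chow water replicate 1, high-fat tea replicate 4 and high-fat water replicate 4, and "9 libraries" for all with over 1000 CPM of another organ's list. The causes of these shifts were not tested. The spread between libraries limits these comparisons more than depth does, and with 9 libraries left out 2 libraries remain in some groups.

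For high-fat water against chow water the members called were 4 with the replicate block, 16 in limma voom, 34 without 3 libraries and 30 without 9 libraries, as against 2. For high-fat tea against high-fat water they were 0 with no filter, 0 with only the groups compared, 5 in DESeq2, 7 in limma voom, 9 without 3 libraries and 0 without 9 libraries. DESeq2 called 1 in chow tea against chow water and 1 in the interaction. Without chow water replicate 1, high-fat tea against high-fat water gave 0 with only the groups compared and 24 in DESeq2, as against 12.

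Genes called in high-fat water against chow water were 2052 without 9 libraries. In high-fat tea against high-fat water they were 408 with no filter, 21 with only the groups compared, 2444 in DESeq2, 1602 without 3 and 13 without 9 libraries, and, without chow water replicate 1, 21 with only the groups compared and 3065 in DESeq2. In chow tea against chow water they were 2 with no filter, 2 with the block, 0 with only the groups compared, 260 in DESeq2, 9 without 3 and 0 without 9 libraries. In high-fat tea against chow tea they were 19 with no filter, 5 with only the groups compared, 935 in DESeq2, 73 in limma voom, 292 without 3, 5 without 9 libraries and 67 with counts halved. In the interaction they were 4 with no filter, 692 in DESeq2, 6 in limma voom, 44 without 3 and 0 without 9 libraries.

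Leaving out 1 library gave 2 to 28 members in high-fat water against chow water, where 28 came without chow water replicate 1 and the other 19 fits gave 2. It gave 0 to 12 in high-fat tea against high-fat water, and 0 in each other comparison. In high-fat tea against high-fat water the count was 0 without high-fat tea replicate 2 or 3 or any high-fat water library, 1 without high-fat tea replicate 1 or 4 or chow tea replicates 2 to 5, and 12 without chow water replicate 1. After chow water replicate 1 it gave 22 to 32 and 4 to 17 in these 2 comparisons. Genes called ran from 1890 to 4461, 212 to 2017, 2 to 6, 10 to 390 and 3 to 111 in the 5 comparisons, and, after chow water replicate 1, from 1856 to 4665 and 564 to 3186.

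Over all 40 members, the genes whose sign differed from that with all libraries were, in the 5 comparisons, 1, 0, 11, 0 and 22 without chow water replicate 1, 1, 2, 13, 3 and 23 without 3 libraries, and 1, 2, 13, 4 and 23 without 9 libraries, 0 of them called with all libraries in edgeR. Among the 60 log2 changes followed under every setting, Plk1 in high-fat water against chow water had 0.29 with the block, 0.86 in limma voom, 1.62 without 3 and 2.06 without 9 libraries, and -0.71 to 1.44 leaving out 1 library. Top2a there ran from -0.047 (without chow water replicate 2) to 1.82. Tyms in high-fat tea against high-fat water had -0.068 in limma voom, -0.46 without 3 and -0.53 without 9 libraries, and -0.41 to 0.31 leaving out 1. Pcna in chow tea against chow water had 0.059 and 0.031 without 3 and 9 libraries, and -0.16 to 0.038 leaving out 1. Ccne1 in high-fat tea against chow tea had 0.11 and 0.33 without 3 and 9, and -0.15 to 0.11 leaving out 1. In the interaction, with the block, in limma voom, without 3 and without 9 libraries, Mki67 had -0.54, -0.77, -1.20 and -1.78, Top2a -0.28, -0.57, -0.98 and -1.45, and Mcm2 -0.0048, -0.27, -0.51 and -0.47. Leaving out 1, they ran from -1.10 to 0.68, -0.92 to 0.95 and -0.41 to 0.52.

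Same-numbered libraries did not deviate together, at correlations of -0.27 to 0.39 over 20 pairs, so the numbers were not read as pairing. Beside the counts above, the replicate block left the 2 calls of high-fat tea against high-fat water in number.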
